A study of Mus musculus with 6 samples.

Results

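The cytosolic heat shock chaperones described here are 10 genes chosen by symbol: Hspa8, Hspa4, Hsp90aa1, Hsp90ab1, Hsph1, Dnajb1, Dnaja1, Stip1, Hsf1 and Bag3. All 10 were found among the 21135 genes of the table, and all 10 passed the filter on low values that left 17815 genes for the test. RNA was sequenced from DN3 thymocytes of C57BL/6 mice, the double-negative stage of the thymus at which the T-cell receptor beta gene is rearranged. There were 3 libraries from mice with wild-type NMe and 3 from mice homozygous for a mutated GATA site 1 and a mutated GATA site 2 of NMe, a distal enhancer of Myc that Notch binds. The sources used here give neither the age of the mice nor whether each library came from its own mouse, so a p-value measures only the spread between these libraries. The comparison asks how the chaperone genes stand in thymocytes whose Myc enhancer lacks these sites.

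Chaperones of the HSP70 class bind short hydrophobic stretches of unfolded proteins in a cycle driven by ATP. J-domain proteins, here Dnajb1 and Dnaja1, deliver the client and start hydrolysis, and exchange factors, here the HSP110 genes Hspa4 and Hsph1 and the cochaperone gene Bag3, release the nucleotide. Stip1 (HOP) hands clients from HSP70 to HSP90, which finishes the folding of kinases and receptors. Hsf1 is the transcription factor that raises the inducible members, among them Hsp90aa1, Hsph1, Dnajb1 and Bag3, when proteins misfold, whereas Hspa8 and Hsp90ab1 are the constitutive forms that growing cells hold in quantity.

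Hspa4 was lower in the mutant in 3 of 3 libraries, and it was the 1 of 10 genes called, where 10.9% of all tested genes were called lower. Hspa8, Hsp90ab1 and Stip1 had lower means in the mutant and missed the threshold. Dnajb1 had a higher mean and also missed it. Hsp90aa1, Hsph1, Dnaja1, Hsf1 and Bag3 had log2 changes between -0.13 and 0.15. Within the HSP90 pair the share of the inducible gene was above the wild-type range in all 3 mutant libraries. The exact permutation test gave p = 0.1, the smallest possible with 3 against 3 libraries. Hsp90aa1 itself hardly changed (log2 change 0.04), while Hsp90ab1 had the lower mean given above.

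The libraries held 38591038 to 51306934 reads assigned to genes, and Myc itself was 5562, 4612 and 6165 normalised reads in the mutant against 18041, 19223 and 20196 in the wild type (limma adjusted p = 4.22e-05). All 12 DN3 markers were listed, and they differed between the genotypes: limma called 6 higher in the mutant, among them Il2ra (0.85, adjusted p = 0.000364) and Dtx1 (1.91, adjusted p = 2.25e-05), and 1 lower, Rag1 (-0.58, adjusted p = 0.0035). Over all tested genes 7.94% were called higher and 10.9% lower, for this and the next marker count. The DN3 markers summed to 380088 to 423078 normalised reads in wild-type and 495725 to 589810 in mutant libraries. Of 6 double-positive markers 3 were called higher and 0 lower (sums 19413 to 21592 against 29310 to 30290, mostly Themis and Cd1d1). Cd4 and Cd8a themselves had at most 85.4 reads and went the other way, with all mutant libraries below the wild type. Their log2 changes were -0.94 (limma adjusted p = 0.093) and -0.80 (adjusted p = 0.174). Of 6 B-cell markers Ms4a1 and Pax5 were not listed, while the listed ones, nearly all Cd79b, summed to 2356 to 2783 against 2438 to 3875. The myeloid Csf1r had at most 14.8 reads, and the listed myeloid markers summed to 1223 to 1765 in the wild type and 1309 to 2248 in the mutant, mostly Lyz2. Natural killer and gamma-delta markers, mostly Trdc, summed to 10227 to 13197 in the wild type and 17942 to 23223 in the mutant, and the erythroid markers reached 7216 in wild type replicate 2 against 24.9 to 63.6 elsewhere. All 15 tested immediate early genes, which cells switch on within minutes of disturbance, were highest in wild type replicate 1 among the wild-type libraries and in mutant replicate 3 among the mutant libraries, as were 11.4% of all tested genes. Whether any of these differences had a part in the results was not tested. In bulk RNA, fewer cells of a type and less RNA per cell cannot be told apart.

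The stretches before the start sites of 4 of the genes are shown because they carry, or lack, the paired letters that HSF1 binds. RefSeq windows on GRCm38.p6, from 250 bases before to 50 after the start, were matched for 6 of the 10 genes (Hspa4, Hsph1, Dnajb1, Dnaja1, Stip1 and Bag3). The 130 bases before the start are printed 5′ to 3′ on the strand of the gene, with matches in capitals.

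Hsph1, second start (chr5:149636316-149636445, minus strand): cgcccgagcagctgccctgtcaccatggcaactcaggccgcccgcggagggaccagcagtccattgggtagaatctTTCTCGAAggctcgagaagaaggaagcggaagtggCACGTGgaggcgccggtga
Dnaja1, first start (chr4:40722338-40722467, plus strand): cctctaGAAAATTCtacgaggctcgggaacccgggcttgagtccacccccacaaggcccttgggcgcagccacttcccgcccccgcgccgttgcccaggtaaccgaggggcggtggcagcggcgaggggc
Hspa4 (chr11:53300480-53300609, minus strand): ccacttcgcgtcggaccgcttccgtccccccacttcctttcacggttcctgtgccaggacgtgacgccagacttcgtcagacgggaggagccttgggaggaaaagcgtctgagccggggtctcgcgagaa
Dnajb1, first start (chr8:83608045-83608174, plus strand): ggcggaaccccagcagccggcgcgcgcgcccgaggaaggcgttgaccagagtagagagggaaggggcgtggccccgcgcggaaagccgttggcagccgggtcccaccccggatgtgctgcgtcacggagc

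The letters searched were GAANNTTC and TTCNNGAA, the 2 ways in which neighbouring units of a heat shock element meet, and CACGTG, the E-box that MYC and MAX bind. Each reads the same on both strands, and the first pair can overlap each other. The 6 genes had 10 windows, since some have several starts, and one of the heat shock pairs stood in 4 of these, 2 of them overlapping windows of Hsph1, against 15.1% of 32851 windows in all. Counting the start site as 1, the window of the second start of Hsph1 held TTCNNGAA at positions -54 and 16 and GAANNTTC at 21. Dnaja1 held GAANNTTC at -124 of its first start. This first start of Dnaja1 lies 318 bases inside the annotated gene, and the other starts of Dnaja1 held no match. Bag3 held GAANNTTC at 43, after its start. CACGTG stood in the 2 windows of Hsph1 alone among the 10, at -19 from the second start, against 7.15% of all windows. These are matches of letters in short windows, and no binding was measured.

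Levels of different genes are compared per kilobase of annotated exon. In the wild type Hsp90ab1 was the most abundant of the 10 at 40615 ± 1055 normalised reads per kb (SD, n = 3, as for all levels), followed by Hspa8 at 29219 ± 3883, Hsp90aa1 at 16089 ± 814 and Stip1 at 12026 ± 1749. The wild-type ranges of these 4 did not touch. Dnajb1 stood at 7272 ± 1589, Dnaja1 at 2997 ± 286 and Hspa4 at 2552 ± 328, and Hspa4 and Dnaja1 overlapped in the wild type (2303 to 2924 against 2682 to 3242). Per kb of the longest transcript they did not (2757 to 3500 against 4117 to 4976). Hsph1 (1370 ± 112), Hsf1 (814 ± 31.6) and Bag3 (181 ± 40.9) were the lowest. The order of the last 3 was the same in every wild-type library.

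The order in the mutant was the same except that Dnajb1 (11851 ± 3474) passed Stip1 (8918 ± 1515), with overlapping ranges. In the mutant Hspa8 (17387 to 25789) and Hsp90aa1 (14754 to 18397) also overlapped, as did Hspa4 (1378 to 1735) and Hsph1 (1005 to 1721). Per kb of the longest transcript the mutant mean of Hsph1 (2092) was above that of Hspa4 (1905), and Hspa8 did not overlap Hsp90aa1. Together the 10 genes took 0.890%, 0.921% and 0.933% of the reads of wild type replicates 1, 2 and 3 and 0.931%, 0.705% and 0.921% of those of mutant replicates 1, 2 and 3. Mutant replicate 2 was thus the 1 library with a low total.

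**Figure D1:**
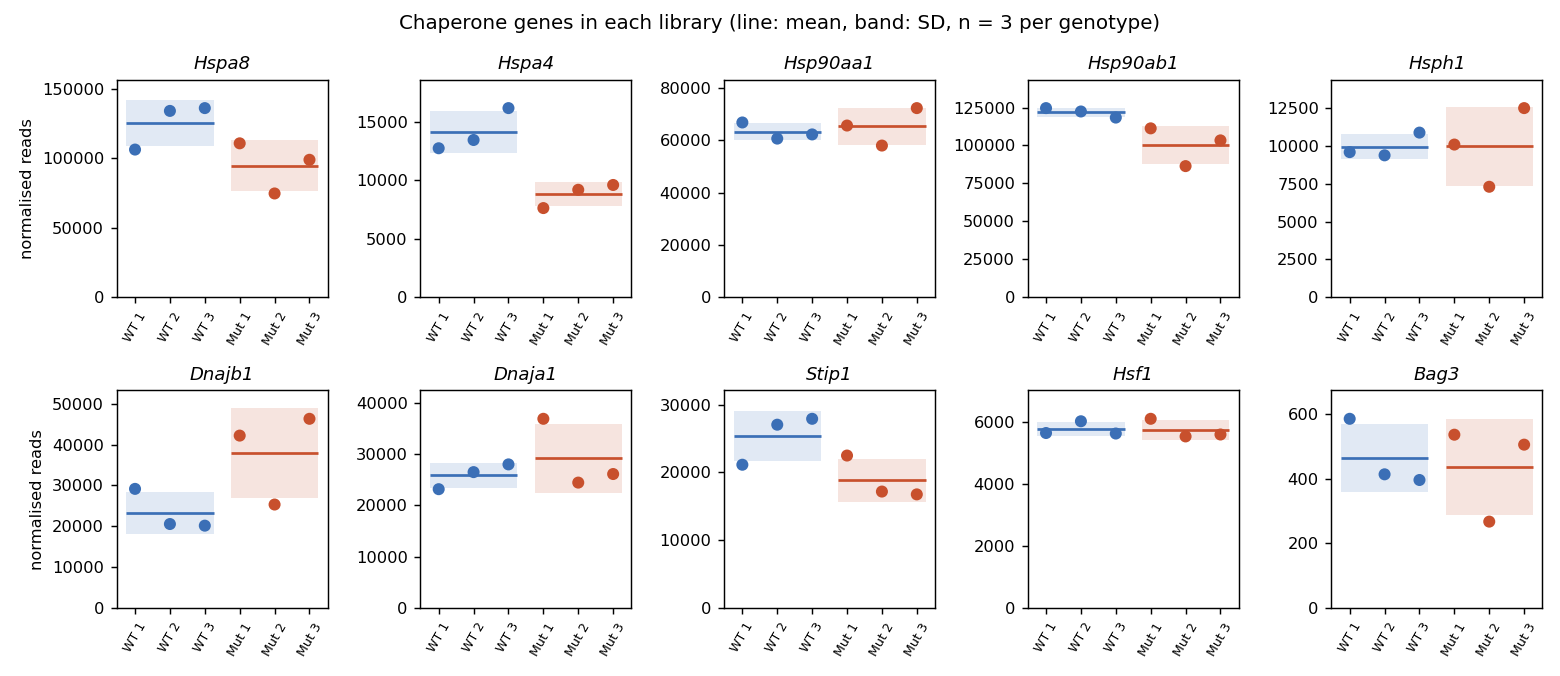
Normalised reads (each vertical axis from 0) of the 10 chaperone genes in the 3 wild-type (WT, blue) and 3 mutant (Mut, orange) libraries, with a line at the mean and a band of 1 SD. The mutant points of Hspa4 lie at 7619 to 9593 reads, under the wild-type points at 12730 to 16162. Mutant replicate 2 is the lowest mutant library in 8 of the 10 genes, against 5150 of all 17815 tested genes.

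Of the 2 HSP110 exchange factors, Hspa4 (Apg-2) is made in unstressed cells and Hsph1 (HSP105) is raised by heat. Hspa4 (chromosome 11, 53259814 to 53300457, GRCm38) had 12730, 13436 and 16162 normalised reads in wild type replicates 1, 2 and 3 and 7619, 9182 and 9593 in mutant replicates 1, 2 and 3. The groups did not overlap, and the lowest wild-type library was well above the highest mutant one. The change was 1.60-fold lower, with a log2 change of -0.68 ± 0.12 (SE) and a 95% confidence interval of -0.95 to -0.41 (limma adjusted p = 0.00459). It passed in each of the 19 alternatives run (adjusted p from 2.53e-05 to 0.0184).

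Hsph1 (chromosome 5, 149614287 to 149636376) had 9596, 9383 and 10886 reads in the wild type and 10095, 7304 and 12506 in the mutant. The mutant libraries lay on both sides of the wild-type ones, mutant replicate 3 above all of them and mutant replicate 2 below. The log2 change was -0.03 with an interval of -0.41 to 0.35 (limma adjusted p = 0.923). Its sign depended on the setting, since it was 0.03 with equal library totals, 0.04 without wild type replicate 3 and 0.18 without mutant replicate 2. The per-kb ratio of Hsph1 to Hspa4 was 0.574, 0.531 and 0.512 in the wild type and 1.01, 0.605 and 0.992 in the mutant. The ratio was thus higher in all 3 mutant libraries, in 1 of them by little. It was chosen after the values were seen and has no test.

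The HSP70 that thymocytes make at all times is Hspa8 (HSC70, chromosome 9, 40800984 to 40810087). It had 106418, 134284 and 136305 normalised reads in the wild type and 110919, 74780 and 99053 in the mutant. Mutant replicate 1 lay above wild type replicate 1, so the groups overlapped, and the other 2 mutant libraries lay below all wild-type ones. The log2 change was -0.42 ± 0.15, with an interval of -0.75 to -0.08 (limma adjusted p = 0.0824). It passed in 2 of the 19 alternatives, without mutant replicate 1 (-0.54, limma adjusted p = 0.0425) and with library weights (-0.52, adjusted p = 0.0273). Over the 19 the log2 change ran from -0.57 to -0.25, and the adjusted p reached 0.235. The value of -0.25 came without mutant replicate 2.

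Stip1 (chromosome 19, 7020702 to 7039967), the adaptor between HSP70 and HSP90, followed a like order. Its levels were 21124, 27030 and 27900 in the wild type and 22480, 17167 and 16751 in the mutant. Only mutant replicate 1 reached into the wild-type range, above wild type replicate 1. The log2 change was -0.43 ± 0.14 (interval -0.75 to -0.12, limma adjusted p = 0.0577). Stip1 passed in 5 of the 19 alternatives, over which the adjusted p reached 0.178. It was called by DESeq2 (adjusted p = 0.0279), with robust empirical Bayes (0.049), with library weights (0.0227), without wild type replicate 1 (-0.56, adjusted p = 0.0308) and without mutant replicate 1 (-0.57, adjusted p = 0.0199), and not by edgeR (0.0707).

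Of the HSP90 pair, Hsp90ab1 (HSP90 beta, chromosome 17, 45567775 to 45573271) is constitutive and Hsp90aa1 (HSP90 alpha, chromosome 12, 110690605 to 110702728) is the inducible form. Hsp90ab1 had 124631, 122400 and 118386 normalised reads in the wild type and 111287, 86405 and 103357 in the mutant, with no overlap. With Hspa4 it made 2 of 10 genes whose mutant libraries all lay below the wild type, against 20.3% of all tested genes, and 0 of 10 lay above, against 18%. The 2 without overlap compare with 38.3% of all tested genes in either direction. The log2 change of Hsp90ab1 was -0.29 ± 0.10 (interval -0.52 to -0.06, limma adjusted p = 0.0821). It passed in 2 of the 19 alternatives, without mutant replicate 1 (adjusted p = 0.0356) and with library weights (0.0254). Over the 19 the log2 change ran from -0.37 to -0.18, and the adjusted p reached 0.249. The change nearest to 0 was the one without mutant replicate 2. Hsp90aa1 had 66824, 60659 and 62254 reads in the wild type and 65652, 57997 and 72319 in the mutant. Here the groups overlapped throughout, with a log2 change of 0.04 and an interval of -0.18 to 0.26 (limma adjusted p = 0.804).

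The 2 forms can be set against each other within each library, where the scaling of the library cancels. Hsp90aa1 made up 29.0%, 27.4% and 28.6% of the summed per-kb level of the pair in the wild type and 31.0%, 33.9% and 34.8% in the mutant. The means were 28.4% ± 0.83 and 33.2% ± 1.96, a difference of 4.87 percentage points. The exact two-sided permutation test gave p = 0.1, which is the smallest that 3 against 3 libraries allow. The difference was 4.09 to 5.97 percentage points when any 1 library was left out.

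**Figure D2:**
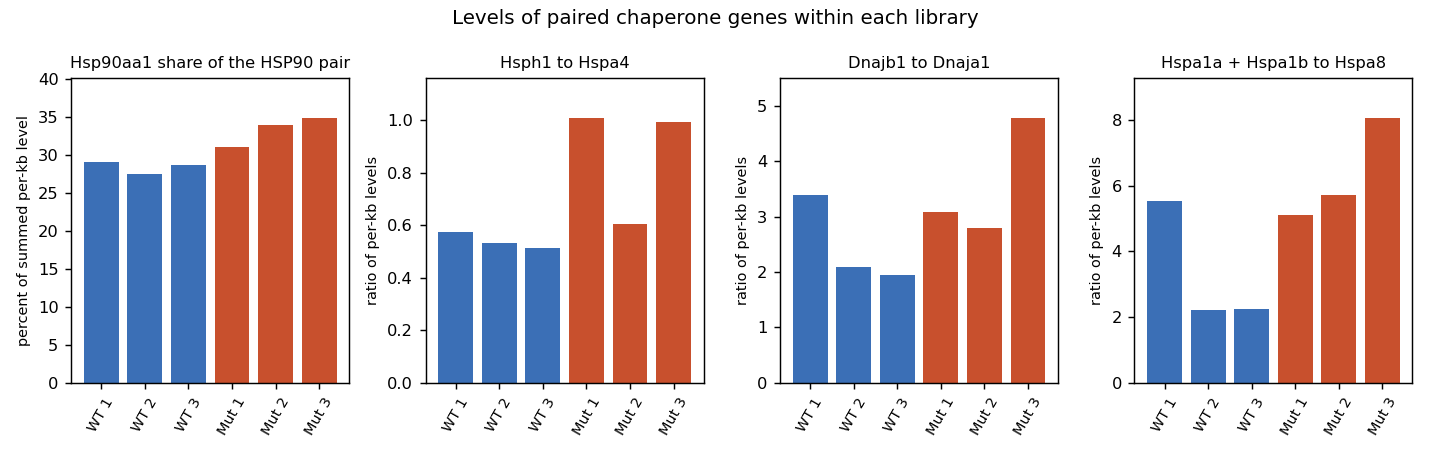
Within-library comparisons on a per-kilobase scale, each vertical axis from 0: the percent of Hsp90aa1 in the HSP90 pair and 3 ratios of per-kb levels, 1 bar per library (blue wild type, orange mutant). The share of Hsp90aa1 runs from 27.4% to 29.0% in the wild type and from 31.0% to 34.8% in the mutant, while the ratios of Dnajb1 to Dnaja1 and of Hspa1a plus Hspa1b to Hspa8 are as high in wild type replicate 1 as in some mutant libraries.

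Both J-domain genes had higher means in the mutant, neither past the threshold. Dnajb1 (HSP40, chromosome 8, 83608193 to 83612653), strongly heat-inducible, had 29173, 20561 and 20161 normalised reads in the wild type and 42228, 25338 and 46344 in the mutant. Mutant replicate 2 fell below wild type replicate 1, and mutant replicates 1 and 3 stood far above. The log2 change was 0.68 ± 0.22, with an interval of 0.20 to 1.16 (limma adjusted p = 0.0542). Dnajb1 passed in 6 of the 19 alternatives, over which the adjusted p reached 0.158. It was called without mutant replicate 2 (0.95, adjusted p = 0.00643) or wild type replicate 1 (0.85, adjusted p = 0.0373), by DESeq2 (adjusted p = 0.00462), by edgeR (0.0476), with equal library totals (0.0484) and with the replicate number as a block (0.0175), and not without wild type replicate 1 and mutant replicate 3 together (0.68, adjusted p = 0.0831).

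Dnaja1 (chromosome 4, 40722150 to 40737149), a J-domain protein with a farnesyl anchor, had 23145, 26472 and 27976 reads in the wild type and 36863, 24428 and 26099 in the mutant. A single library, mutant replicate 1, stood above the rest. The log2 change was 0.15 ± 0.15 (limma adjusted p = 0.516) and -0.03 without that library. The per-kb ratio of Dnajb1 to Dnaja1 was 3.40, 2.09 and 1.94 in the wild type and 3.09, 2.79 and 4.78 in the mutant.

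Hsf1 (chromosome 15, 76477422 to 76501913), the factor that switches on the inducible genes, was nearly the same in all libraries. It had 5654, 6034 and 5637 normalised reads in the wild type and 6114, 5544 and 5606 in the mutant, with a log2 change of -0.01 and an interval of -0.21 to 0.20 (limma adjusted p = 0.972). HSF1 is controlled mainly on the protein, so its transcript level does not measure its activity. Bag3 (chromosome 7, 128523616 to 128546981), an HSF1 target that couples HSP70 to autophagy, was the rarest member. Its 585.3, 413.5 and 395.9 reads in the wild type stood against 536.1, 267.1 and 505.3 in the mutant, and wild type replicate 1 was the highest of all 6. The log2 change was -0.13 with the widest interval of the 10, -0.74 to 0.47 (limma adjusted p = 0.768).

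**Figure D3:**
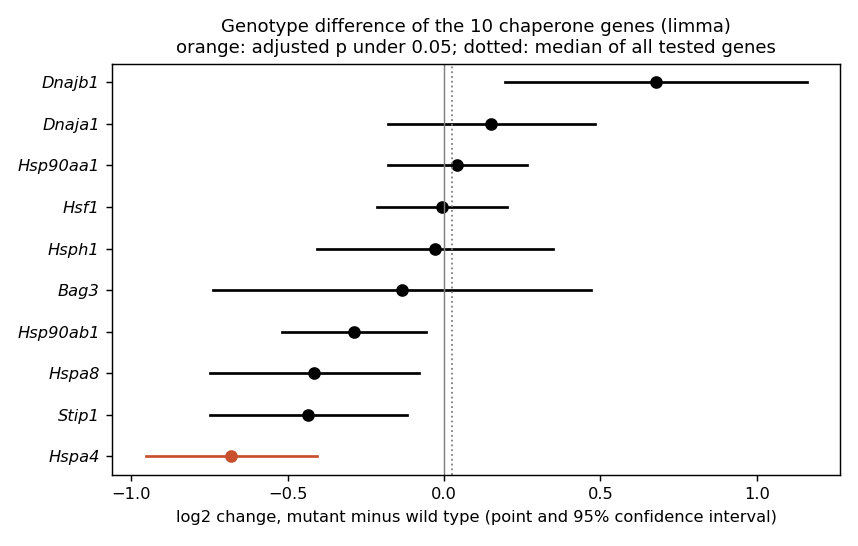
Log2 change (mutant minus wild type) of each of the 10 genes with its 95% confidence interval from limma, ordered by size, and a dotted line at the median of all tested genes (0.03). The intervals of Hspa4, Stip1, Hspa8 and Hsp90ab1 lie below 0 and that of Dnajb1 above it, and Hspa4 alone (orange) passed the adjusted threshold.

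Counted over the 10, limma called 1 lower and 0 higher (10.9% and 7.94% of all tested genes). At an unadjusted p under 0.05 there were 4 lower and 1 higher, 5 of 10 where 33.3% of all tested genes passed in either direction. edgeR called 1 lower and 1 higher, DESeq2 2 and 1, and voom 1 and 0. The median log2 change of the 10 was -0.08, against 0.03 over all tested genes. Across all genes 1938 fell and 1414 rose, a split that turned to 1648 and 1828 when library totals were made equal. The count of members lower was 4 with library weights and without mutant replicate 1.

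The inducible HSP70 genes Hspa1a and Hspa1b, which heat raises strongly, varied widely between libraries of each genotype. Hspa1b had 271486, 134472 and 141770 normalised reads in the wild type and 267700, 200498 and 373066 in the mutant (log2 change 0.65 ± 0.27, limma adjusted p = 0.127). Hspa1a had 118945, 62653 and 59355 against 106746, 82056 and 155404 (0.54 ± 0.27, limma adjusted p = 0.198). In both genes wild type replicate 1 lay within the mutant range, and mutant replicate 3 was the highest. Their longest transcripts are 99.1% identical over 2200 bases, so the division of reads between these neighbours on chromosome 17 is uncertain, and their sum is the safer value. Together they took 0.869%, 0.431% and 0.441% of wild-type reads and 0.842%, 0.646% and 1.24% of mutant reads. Both were called without wild type replicate 1 (Hspa1a 0.86, limma adjusted p = 0.0342, and Hspa1b 0.98, adjusted p = 0.0196). They were also called without wild type replicate 1 and mutant replicate 3 together (0.62, adjusted p = 0.0299, and 0.75, adjusted p = 0.0185). These 2 libraries are the highest of their genotypes in both genes and were left out together after the values were seen. Leaving out the highest library narrows the spread within a genotype, so these calls are no separate support.

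Per kb the pair stood at 5.54, 2.21 and 2.23 times the level of Hspa8 in the wild type and at 5.10, 5.71 and 8.05 times in the mutant. Like Hspa1a and Hspa1b, the tested immediate early genes were highest in wild type replicate 1 and mutant replicate 3 within their genotypes. In mutant replicate 1 Hspa1b (267700) stood near wild type replicate 1 (271486). The mean of the immediate early genes was below that library, but its genes were split. Ier2, Ier3, Egr2 and Btg2 were above wild type replicate 1 in mutant replicate 1, and the other tested ones were below it. Fos was 49021 in wild type replicate 1 against 16211 and 12267 in wild type replicates 2 and 3, and 22427, 22378 and 44541 in the mutant libraries. As a mean over 15 genes, the immediate early genes deviated from their gene means by 0.59, -0.74 and -1.04 on the log2 scale in the wild type and by -0.01, 0.05 and 1.14 in the mutant. The mean deviation of the 10 chaperone genes was 0.05, 0.04 and 0.08 in the wild type and 0.10, -0.32 and 0.05 in the mutant, lowest in mutant replicate 2. Of the 10 genes Dnajb1 and Hsp90aa1 were highest in both wild type replicate 1 and mutant replicate 3 within their genotypes (20%, against 11.4% of all tested genes). The part of the immediate early response in the genotype differences of Dnajb1 and Hspa1b was not tested.

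**Figure D4:**
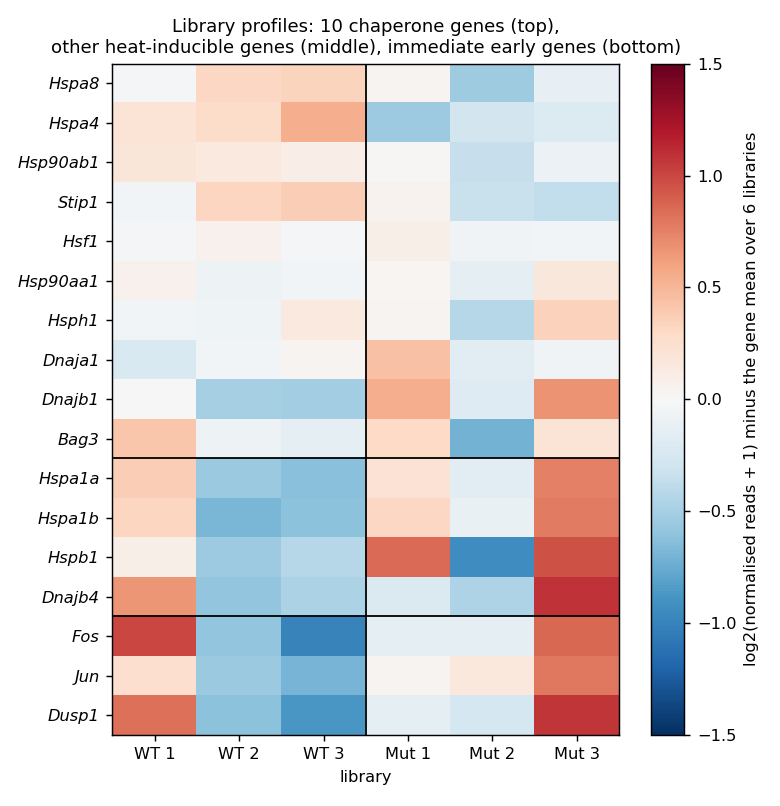
Colour gives log2(normalised reads + 1) minus the mean of the gene over 6 libraries, for the 10 chaperone genes (top block), 4 other heat-inducible genes (middle) and 3 immediate early genes (bottom), by library with a line between genotypes. Hspa1a, Hspa1b, Dnajb4, Fos and Dusp1 are high in wild type replicate 1 and mutant replicate 3, whereas Hspa4 and Hsp90ab1 are lower in all mutant columns. Within its genotype Hspa4 is still highest in mutant replicate 3, and Hsp90ab1 in wild type replicate 1.

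The cochaperones that work with HSP90 were counted next. Of 21 listed genes 8 fell and 0 rose (38.1% called, where 18.8% of all tested genes were). At an unadjusted p under 0.05, 9 fell and 1 rose, where 33.3% of all tested genes passed in either direction. The median of the list was -0.11. edgeR, DESeq2 and voom each called 8 lower and 0 higher. Those that fell include Fkbp4, an immunophilin that binds HSP90 through tetratricopeptide repeats, which went from 27774 ± 3566 to 17554 ± 2563 normalised reads (log2 change -0.66 ± 0.13, limma adjusted p = 0.00649). Nudcd2 (-0.71 ± 0.11), Nudc (-0.70 ± 0.11), the p23 gene Ptges3 (-0.54 ± 0.09), the cyclophilin gene Ppid (-0.61 ± 0.11) and the phosphatase gene Ppp5c (-0.51 ± 0.10) fell with it, at limma adjusted p from 0.00178 to 0.00549. The other two were the kinase-specific Cdc37 (-0.48, adjusted p = 0.00991) and Rpap3 (-0.48, adjusted p = 0.00992). Fkbp5, the glucocorticoid-inducible relative of Fkbp4, stood at 42367, 45412 and 47173 in the wild type and 42973, 50565 and 43772 in the mutant (log2 change 0.02, limma adjusted p = 0.893). Without wild type replicate 1 and mutant replicate 3 together 5 of the 8 passed, since Cdc37, Ppp5c and Rpap3 did not (adjusted p from 0.0507 to 0.0578).

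Among 9 exchange factors and cofactors of HSP70, 3 fell and 1 rose (44.4% called, against 18.8% of all tested genes). At an unadjusted p under 0.05, 6 were lower and 1 higher, against 33.3% of all tested genes in either direction. The median was -0.34. Bag2, which inhibits the ligase CHIP, fell from 2797 ± 534 to 1195 ± 194 reads (-1.22 ± 0.17, limma adjusted p = 0.00119), and the exchange factor gene Hspbp1 from 5042 ± 146 to 3013 ± 184 (-0.74 ± 0.10, adjusted p = 0.000913). Bag1 fell by less (-0.34 ± 0.10, adjusted p = 0.045), and its call was lost with equal library totals (0.0686), with edgeR (0.052) and on leaving out any single library but mutant replicate 1 (adjusted p up to 0.152). The list also held 2 rather than 3 genes lower with no filter on low values and with the replicate block. The gene that rose, Hsf2bp, belongs by function to meiotic recombination rather than to HSP70, and went from 140 ± 45.1 to 298 ± 64.0 reads (1.12 ± 0.28, adjusted p = 0.0214), a call lost when mutant replicate 1 was left out (0.0748) or when wild type replicate 1 and mutant replicate 3 both were (0.0526). The ligase gene Stub1 (CHIP) stood at 2681, 3034 and 2840 against 3055, 2968 and 2820.

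Of 18 other J-domain genes of the cytosol and nucleus, Dnaja2 (-0.43 ± 0.11, limma adjusted p = 0.0242) and the ribosome-associated Dnajc2 (-0.34 ± 0.10, adjusted p = 0.0433) fell and Dnajb2 (0.46 ± 0.13, adjusted p = 0.0295) rose. These 3 are 16.7% of the list, where 18.8% of all tested genes were called, and the list median was 0.02. Each of these 3 calls was lost on leaving out some of the libraries. For Dnaja2 they were wild type replicates 2 or 3 or mutant replicate 3 (adjusted p up to 0.081), for Dnajc2 any but mutant replicate 1 (up to 0.123) and for Dnajb2 any but wild type replicate 2 (up to 0.0909). The heat-inducible Dnajb4 was high in the same libraries as the immediate early genes, at 4433, 1853 and 2012 in the wild type and 2419, 2037 and 5962 in the mutant (log2 change 0.28, limma adjusted p = 0.676).

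Of the other 9 HSP70 and HSP110 genes, limma called 0, where 18.8% of all tested genes were called. At an unadjusted p under 0.05 there were 2 higher and 2 lower, where 33.3% of all tested genes passed in either direction. DESeq2 called 1 higher and 1 lower, and edgeR and voom 0. Hspa12a, a distant relative, was near the limit of detection, at 25.4, 20.1 and 32.9 reads in the wild type and 13.7, 8.10 and 7.70 in the mutant (-1.34 ± 0.49, limma adjusted p = 0.085). Of 8 small heat shock proteins 5 were not listed and the lens and muscle chaperone gene Cryab stood at 0 to 8.10 reads. Hspb1 (HSP25) was 320, 206 and 222 against 542, 158 and 584 (0.59 ± 0.43, limma adjusted p = 0.377) and was called without mutant replicate 2 (adjusted p = 0.0116). Hspb6 was the other tested member (0.43, adjusted p = 0.103), so that limma, edgeR, DESeq2 and voom called 0 of 2, with 1 higher at an unadjusted p under 0.05.

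Hsf2, the second heat shock factor, was at 415, 540 and 537 reads in the wild type and 407, 538 and 605 in the mutant. With Hsbp1 and Hikeshi it made 3 tested genes of that group, of which limma, edgeR, DESeq2 and voom called 0, with 0 at an unadjusted p under 0.05. Over all tested genes limma called 18.8%, and 33.3% passed at the unadjusted threshold. Hsf4 and Hsf5 had at most 13.2 reads in any library.

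Among 13 tested genes that HSF1 also raises, 2 fell and 1 rose (23.1% called, near the 18.8% of all tested genes), with a median of 0.34. Of these 13 genes 6 (46.2%) were highest in both wild type replicate 1 and mutant replicate 3 within their genotypes, and the part of those libraries was not tested. The 2 that fell encode subunits of folding machines, the mitochondrial chaperonin gene Hspd1 (31114 ± 3400 to 14113 ± 1517, log2 change -1.14 ± 0.11, limma adjusted p = 0.000258) and the cytosolic chaperonin gene Tcp1 (-0.49 ± 0.10, adjusted p = 0.00777). The gene that rose was Cyp4f13 (0.78, adjusted p = 0.00816). Hspe1, which shares its promoter region with Hspd1, had 14739, 11859 and 11624 reads against 11802, 6022 and 15498 (-0.29, adjusted p = 0.495).

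All 15 tested immediate early genes had positive changes, 5 were called higher and 0 lower (0 lower at an unadjusted p under 0.05 and by edgeR, DESeq2 and voom). The 5 are 33.3% of the list, where 7.94% of all tested genes were called higher, and the median of the list was 0.68. Those called were Egr2 (1.81 ± 0.40, limma adjusted p = 0.0119), Egr1 (1.44), Ier3 (0.87), Ier2 (0.80) and Btg2 (0.62 ± 0.12, adjusted p = 0.0076). The calls of Egr1 and Ier2 were lost with robust empirical Bayes (adjusted p = 0.209 and 0.144), edgeR (0.0592 and 0.0547) and DESeq2 (0.112 and 0.119). They were also lost without wild type replicate 2, wild type replicate 3, mutant replicate 1 or mutant replicate 3 (adjusted p up to 0.136 for either gene), and that of Egr1 without mutant replicate 2 (0.055). The count was 9 without wild type replicate 1, where 1076 of all 17849 tested genes were called higher. It was 11 without wild type replicate 1 and mutant replicate 3 together, where 826 of 17698 were. All 15 genes are highest in these 2 libraries within their genotypes, and the pair was chosen after the values were seen. The larger counts are therefore no separate support. Atf3, at 239, 7.60 and 9.80 reads in the wild type and 19.0, 29.9 and 341 in the mutant, changed by more than 2-fold in the fit and was not called (1.08 ± 1.30, adjusted p = 0.605).

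**Figure D5:**
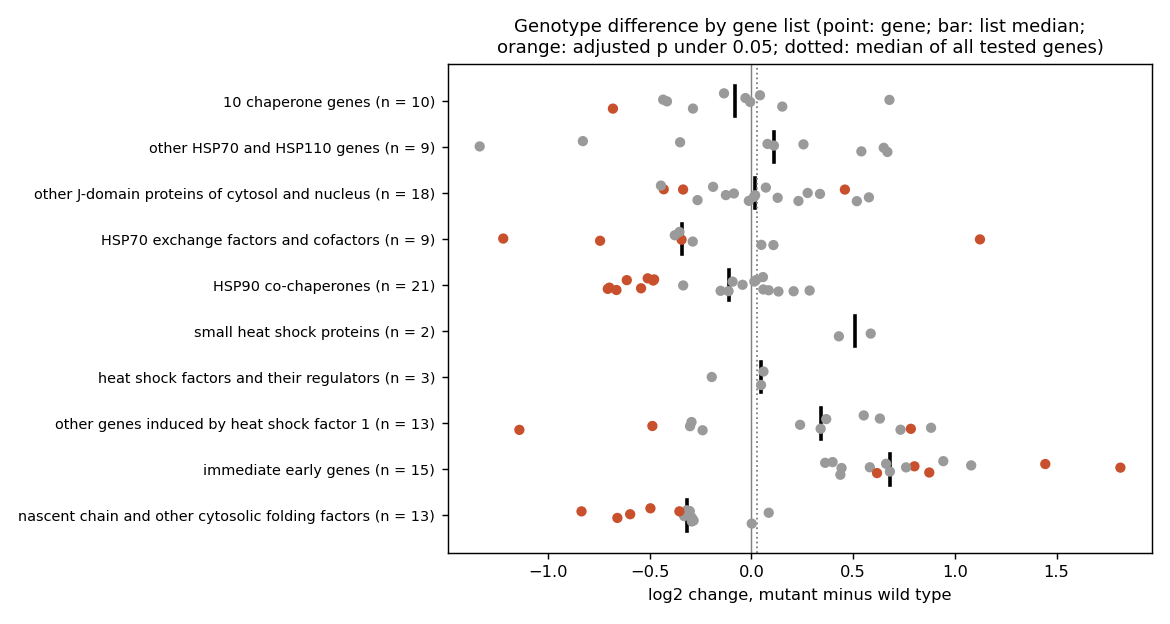
Log2 change of every tested gene (points, orange where the adjusted p passed) in the 10 chaperone genes and 9 related lists, with a bar at each list's median and a dotted line at the median of all tested genes. The HSP90 cochaperones called are all on the left, between -0.71 and -0.48, and the immediate early genes are all on the right, between 0.36 and 1.81.

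Several of the members have near-identical copies, which limits how exactly their reads can be assigned. Among listed pseudogenes that aligned over at least 50% of their length, 8 matched Hspa8, 3 Hsp90aa1, 4 Hsp90ab1 and 4 Dnaja1 best, and 0 matched the other six. Gm12346 on chromosome 11 is 99.5% identical to Hsp90aa1 over 2255 bases and averaged 2025 reads in wild-type and 1753 in mutant libraries. Summed, such copies held 2.60% (wild type) and 2.44% (mutant) of the level of Hspa8, 4.60% and 3.96% for Hsp90aa1, 2.67% and 2.30% for Dnaja1, and 0.21% and 0.25% for Hsp90ab1. The longest transcripts of Hsp90aa1 and Hsp90ab1 share 76.1% of bases over 2171, and those of Hspa4 and Hsph1 68.9% over 1542. Because the libraries do not keep the strand, 608 exonic bases that Dnaja1 shares with the opposite gene Smu1 (7.05% of its exons) cannot be told apart between the 2 genes.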

How the data were processed

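RNA of DN3 thymocytes was sequenced in 6 libraries. Per the labels' protocols, cDNA was made with SMART-Seq v4 and tagged with Nextera XT, without strand. STAR 2.5.3, featureCounts, DESeq2 1.20.0 and the builds mm10 and GRCm38 are named in the submitters' processing notes. Annotation and counting options: not given in the sources used here. In the deposited table the unit is a signal per gene, obtained by the authors from counts scaled with a size factor for each library. Division by the value of 1 read gave whole reads for 100.0% of 126810 values (tolerance 0.1 reads). A count model on these reads called 3283 genes with edgeR 4.0.16 and 4168 with DESeq2 1.42.0. Of the 21135 genes, 21100 had a symbol in GENCODE M21 (GRCm38).

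The test was limma 3.58.1 in R 4.3.3 (empirical Bayes, trend on the mean) on log2(value + 1). It compared mutant with wild type, two-sided, across the 17815 genes whose mean was 10 or more, with Benjamini-Hochberg adjustment over all of them at 0.05. A fold change on this scale understates that of rare transcripts. Errors of levels are SD over 3 libraries and errors of log2 changes are standard errors. In simulated counts for 17518 genes, limma found 9.09% of the 66 genes given a 1.5-fold change. It found 47% of the 66 given 2-fold and 79.7% of the 64 given 4-fold. Of its calls there, 9.28% were false. Only these genes were changed in the simulation, a far smaller share than the 18.8% of tested genes called in the data. The adjusted threshold is harder to pass with so few changes, so these shares do not give the power of this comparison. Alternatives were other scalings, pseudocounts, filters, variance models, count models (also voom), a replicate block, leaving out libraries, and, added after the data were seen, leaving out wild type replicate 1 and mutant replicate 3 together. Levels per kb used the union of annotated exons. Pseudogenes were matched to the longest transcript with BLAST 2.17.0.

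The members and the lists were chosen with earlier results of these data known. Genes named are the 10 members, Myc, per list the called genes (up to 6 by smallest p) and those changed at least 2-fold but not called, and the 4 genes with the profile nearest to that of Hsph1 or Hsp90ab1. Other genes named were chosen after their values were seen.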

Additional observations from a re-analysis of the deposited data

How the results depend on the processing

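Of the 10 chaperone genes 1 was called lower and 0 higher. Those lower numbered 2 with robust empirical Bayes, 4 with library weights, 2 with DESeq2 and 1 to 4 when 1 library was left out. Those higher numbered 1 with equal library totals, edgeR, DESeq2 or the replicate block and 0 to 1 when 1 library was left out. The block raised Dnajb1 past the threshold (adjusted p = 0.0175) and turned the J-domain list to 1 lower and the HSF1-induced list to 2 higher, with 3066 genes called in all. Same-numbered libraries did not deviate together (correlations -0.0218, -0.0664 and -0.00972 over 17815 genes), so the numbers were not taken to pair them. The cause of these shifts was not tested.

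Over all genes, those higher numbered 817 to 1182 and those lower 1079 to 1784 when 1 library was left out (817 and 1079 without wild type replicate 2, 860 higher without mutant replicate 2), and 826 and 1047 without wild type replicate 1 and mutant replicate 3 together. With these 2 left out, 2 other HSP70 genes, 0 J-domain genes, 0 HSP70 cofactors, 2 HSF1-induced and 11 immediate early genes were higher, and 0 J-domain genes and 5 HSP90 cochaperones lower. Equal totals gave 2 HSF1-induced genes higher and 1 J-domain gene lower. The immediate early genes higher numbered 3 with robust empirical Bayes, edgeR or DESeq2. Of the other HSP70 genes 1 was lower with a mean of at least 50, robust empirical Bayes, library weights or DESeq2, and DESeq2 called 1 higher, as well as 2 HSF1-induced genes. With 1 library left out, genes higher ranged from 0 to 2 (other HSP70), 0 to 1 (J-domain, HSP70 cofactors and small heat shock proteins each), 1 to 3 (HSF1-induced) and 3 to 9 (immediate early), and genes lower from 0 to 1 (other HSP70), 0 to 2 (J-domain) and 3 to 6 (nascent chain factors).

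Signs near 0 turned. The log2 change of Hsf1 was 0.054 with equal totals, 0.00062 with TMM, 0.00814 with edgeR, 2.7e-05 with DESeq2 and 0.00722 with voom, and ran from -0.050 to 0.026 when 1 library was left out (positive without wild type replicate 2, mutant replicate 2 or mutant replicate 3). Hsph1 was 0.030 with equal totals, 0.016 with edgeR and 0.00797 with DESeq2, and ran from -0.21 (without mutant replicate 3) to 0.18 (without mutant replicate 2). Bag3 ran from -0.32 (without mutant replicate 1) to 0.19 (without mutant replicate 2), Dnaja1 from -0.030 (without mutant replicate 1) to 0.27 (without mutant replicate 2) and Hsp90aa1 from -0.034 (without mutant replicate 3) to 0.12 (without mutant replicate 2). In simulation 9.09% of the genes given a 1.5-fold change were found, but far fewer genes were changed there than the 18.8% called in the data. That share therefore does not give the power of this comparison.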

Other observations

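A list of 13 nascent chain and other cytosolic folding factors held 5 genes that fell and 0 that rose (38.5% called, against 18.8% of all tested genes, with 0 higher at an unadjusted p under 0.05 and by edgeR, DESeq2 and voom), with a median log2 change of -0.32. Among them were both subunits of the nascent polypeptide-associated complex, which meets proteins as they leave the ribosome, Naca (20675 ± 775 to 13138 ± 1415 normalised reads, -0.66 ± 0.10, limma adjusted p = 0.00184) and Btf3 (14657 ± 353 to 9729 ± 1004, -0.60 ± 0.10, adjusted p = 0.00283). Nap1l1 and Ppia do not act on nascent chains at the ribosome: the histone chaperone gene Nap1l1 fell from 13954 ± 566 to 7835 ± 667 (-0.84 ± 0.10, adjusted p = 0.000493) and the cyclophilin gene Ppia from 114543 ± 6352 to 81474 ± 9317 (-0.50 ± 0.10, adjusted p = 0.00833). The acetyltransferase gene Naa10 (-0.35, adjusted p = 0.0386) was the fifth, a call lost with equal library totals (0.0585) and on leaving out each library in turn (adjusted p from 0.0621 to 0.136). Of the prefoldin genes, which pass actin and tubulin to the cytosolic chaperonin, Pfdn6 was closest to the threshold (-0.33, adjusted p = 0.0505).

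Among 13381 genes with a mean of at least 50, the profile over the 6 libraries nearest to that of Hsph1 was that of Gm14335, with a root mean square difference of 0.0545 on the log2 scale, followed by Gm8971 (0.0888), Gm43858 (0.0931) and Ube2c (0.0935). Nearest to Hsp90ab1 were Tlcd1 (0.0359), Ears2 (0.04), E2f5 (0.0425) and Polr2h (0.0445).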
